A study of Saccharomyces cerevisiae with 8 samples.

Results

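The genes described here encode the protein factors that carry the yeast ribosome through translation initiation, elongation and termination. They were chosen by name, 41 genes in all, and 38 of them were each read by 1 probe set, out of 5449 genes of Saccharomyces cerevisiae with a probe set. The 38 were 25 of 26 initiation factor genes, 9 of 11 elongation factor genes and 4 of 4 genes of termination and recycling, and each had signals high enough to be tested. The genes without a probe set under their own name were TIF1, TEF1 and EFT1. Each is the duplicate of a measured gene, TIF2, TEF2 or EFT2, that encodes the same protein, and the 3 probe sets of these measured genes are of a type that can also read near-identical transcripts. Their signals may therefore come from both copies, and how much comes from each cannot be told apart.

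Messenger RNA was measured on 8 Affymetrix arrays, 2 for each of 4 groups in the W303 strain background. The double deletion was strain 6EA1, in which RPL12A and RPL12B are both deleted. The 6EA1 strain with RPL12A on a high copy plasmid is called plus RPL12A, the 6EA1 strain with RPL12B on such a plasmid plus RPL12B, and the wild type was W303 itself. The plasmid backbones are not given in the sources used here, and no 6EA1 culture with an empty plasmid is among the groups, so the effect of carrying a plasmid cannot be told apart from that of the gene on it. How many independent clones of 6EA1 or of its transformants were grown is also not given. Cultures were taken in early log phase at 30 °C, at an A600 of 0.5 to 0.6, in minimal medium with 2% glucose and 40 mg per litre of each required supplement. The a-type pheromone receptor gene STE2 gave signals of 2468 to 3119 on the 8 arrays and the alpha-type pheromone gene MF(ALPHA)1 gave 12.5 to 40.4. The other a-type marker genes gave 495 to 886 (MFA1), 1401 to 3165 (MFA2), 243 to 773 (BAR1) and 80.5 to 124 (ASG7). The other alpha-type marker genes gave 20.8 to 32.6 (MF(ALPHA)2), 35 to 58.9 (STE3), 160 to 402 (SAG1) and 74.4 to 146 (AFB1). The range of SAG1 overlapped that of BAR1, and the range of AFB1 overlapped that of ASG7. Of 5 a-type marker genes MFA2 and BAR1 fell in the double deletion, with log2 differences of -0.80 and -1.45, and of 5 alpha-type marker genes SAG1 rose, at 1.09. The part of these shifts in the results below was not tested.

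RPL12A and RPL12B encode the same protein, Rpl12, which sits at the base of the ribosomal stalk. The stalk is the flexible arm of acidic proteins on the large subunit that recruits the GTP-binding factors of translation and triggers their GTP hydrolysis. In initiation, eIF4 factors bind the cap and unwind the messenger, eIF2 brings the initiator tRNA as a GTP complex, eIF2B recharges eIF2 with GTP, eIF3 scaffolds the complex on the small subunit, and eIF5B joins the subunits. In elongation, eEF1A delivers aminoacyl-tRNA and is recharged by eEF1B, eEF2 moves the ribosome along, and the fungal factor eEF3 helps to release the spent tRNA. Termination uses eRF1 and the GTP-binding eRF3, and the ATPase Rli1 then splits the ribosome. eEF1A, eEF2, eIF5B and eRF3 are GTP-binding factors of the kind that act at the stalk.

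The genotypes were checked first. RPL12A (YEL054C) gave signals of 28.8 and 6.88 in the double deletion, 6079 and 5732 in plus RPL12A, 8.18 and 15.5 in plus RPL12B, and 5321 and 5269 in the wild type. RPL12B (YDR418W) gave 17.3 and 1.71 in the double deletion, 48.5 and 20.1 in plus RPL12A, 5469 and 6446 in plus RPL12B, and 6537 and 7040 in the wild type. Each gene was low in the strains that lack it and high in those that carry it. Signals are the deposited linear intensities, whose trimmed mean was about the same on every array. They give each messenger relative to the others on its array, so fewer messengers per cell and a smaller share of the messenger pool cannot be told apart.

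In the double deletion most translation factor genes had slightly lower signals than in the wild type. Of the 38 genes, 19 fell at an adjusted p under 0.05, 1 rose, and 18 did not pass the test. Adjusted p values throughout are 2-sided values of limma after the Benjamini-Hochberg adjustment over all 5439 tested genes. Over all tested genes 12.2% fell and 20.4% rose. The median log2 difference of the factor genes was -0.24, against 0.14 for all tested genes, and 36 of the 38 lay below that overall median. The falls were 11 of 25 among initiation factors, 7 of 9 among elongation factors and 1 of 4 in termination and recycling. The only rise was HEF3, a second gene for eEF3. Both double deletion arrays lay below both wild type arrays for 30 of the 38 genes, where 28.2% of all tested genes did so, and above both for 2 genes, where 47.3% of all tested genes did so. At an unadjusted p under 0.05, 25 factor genes were lower, against 17.1% of all tested genes, and 1 was higher, against 27.8%.

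The sizes were small and depended on how the arrays were put on a common scale. On the deposited scale 19 factor genes fell and 1 rose. With each array centred on the median of its yeast genes 31 fell and 1 rose, and 22.2% of all tested genes fell and 10.1% rose. With quantile normalization 3 fell (7.85% of all tested genes) and 0 rose (7.23%). With the arrays centred on 18 hybridisation control probe sets, 0 fell (1.2%) and 6 rose (51.9%). The median of all tested genes under these alternatives was -0.06, 0 and 0.55, and that of the factor genes -0.44, -0.05 and 0.16. On each scale the factor genes' median was below that of all tested genes. Centring shifts every gene of an array alike, so neither centring could change this gap. Quantile normalization could change it, and it left -0.05 against 0. No factor gene was called in the same direction under all 4 scales. The direction of the whole class is therefore given only relative to the other genes on the array, and with quantile normalization the gap was small.

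**Figure D1:**
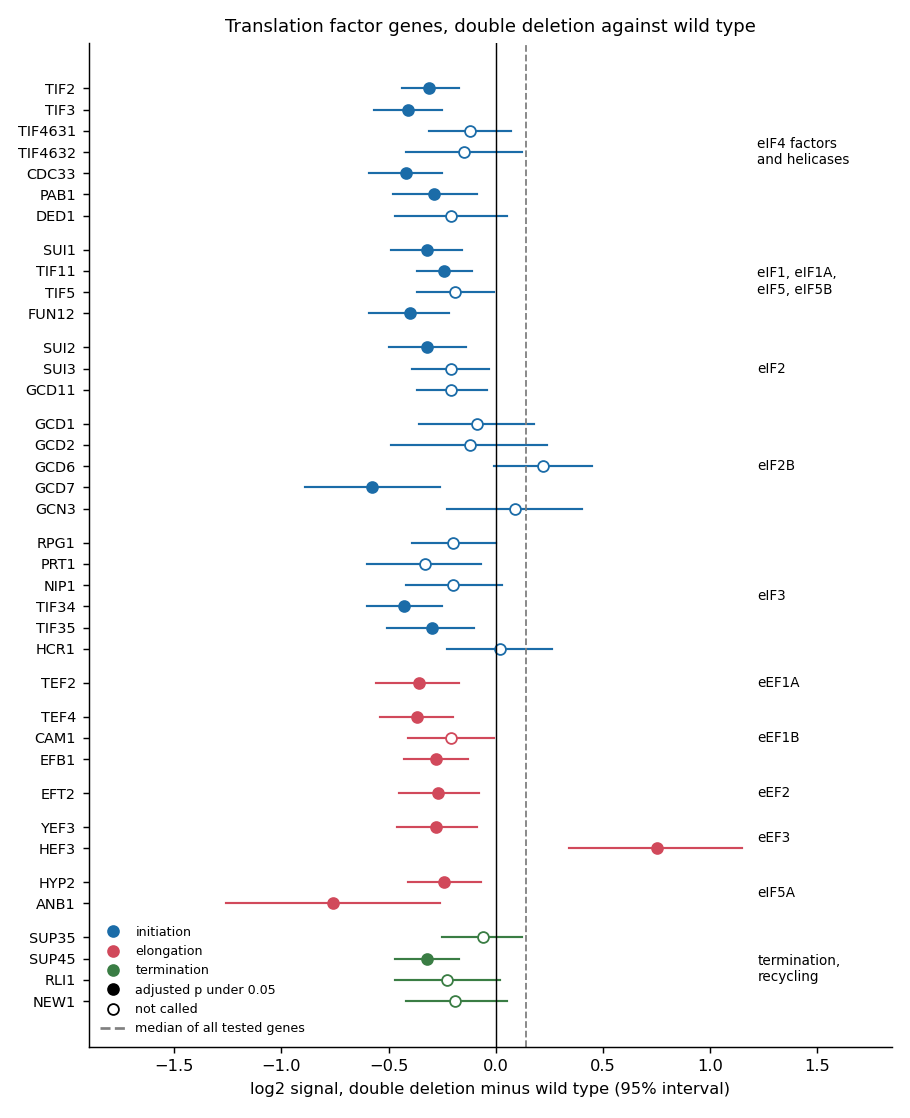
The log2 signal difference, double deletion minus wild type, is plotted for each of the 38 factor genes with its 95% interval, in rows grouped by factor, with filled points for genes at an adjusted p under 0.05 and a dashed line at the median of all tested genes, 0.14. Nearly all points lie left of the dashed line, and HEF3 at 0.75 is the only filled point to its right.

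Among the factors that bind the cap and the messenger, 4 of 7 genes fell on the deposited scale, with a median of -0.29. Of all tested genes 12.2% fell, and all genes with a mean signal over 3000 had a median of -0.28. The counts by factor here and below are thus descriptions, and the part of signal level in them was not tested. CDC33 (YOL139C), which encodes the cap-binding protein eIF4E, gave 3590 and 3900 in the double deletion, 4328 and 4438 in plus RPL12A, 4031 and 4362 in plus RPL12B, and 4883 and 5130 in the wild type. All arrays of the 6EA1 strains lay below both wild type arrays, and the double deletion arrays were lowest. Its log2 difference between double deletion and wild type was -0.42 (SE 0.07, limma adjusted p = 0.00846), a ratio of 0.748. TIF3 (YPR163C), the gene of eIF4B, which stimulates the eIF4A helicase, gave 2314 and 2377 in the double deletion, 2630 and 2676 in plus RPL12A, 2696 and 2638 in plus RPL12B, and 3214 and 3019 in the wild type. It fell by 0.41 on the log2 scale (SE 0.07, limma adjusted p = 0.00846), and its double deletion arrays were lowest with all 4 plasmid strain arrays between them and the wild type. TIF3 was 1 of the 3 factor genes that also fell with quantile normalization, by 0.26 (limma adjusted p = 0.0346), while with centring on the hybridisation controls its difference was 0.

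The helicase eIF4A probe set, TIF2 (YJL138C), gave 5599 and 6045 in the double deletion, 6606 and 6679 in plus RPL12A, 6154 and 6538 in plus RPL12B, and 7163 and 7230 in the wild type. It fell by 0.31 (SE 0.06, limma adjusted p = 0.0104), and its groups stood in the same order as those of CDC33. PAB1, the poly(A)-binding protein, gave 3211 and 3558 in the double deletion and 4095 and 4144 in the wild type, and it fell by 0.29 (limma adjusted p = 0.0389). Both genes were at 0.10 and 0.12 above the wild type with hybridisation control centring. The eIF4G scaffold genes TIF4631 and TIF4632 and the helicase gene DED1 did not pass the test. Their log2 differences were -0.12 (95% interval -0.31 to 0.07), -0.15 (-0.42 to 0.12) and -0.21 (-0.47 to 0.05). The intervals leave room for a difference as large as that of CDC33 in DED1 and TIF4632.

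The factors of start codon selection and subunit joining gave 3 falls in 4 genes, with a median of -0.28, where 12.2% of all tested genes fell. FUN12 (YAL035W), which encodes the GTP-binding factor eIF5B, gave 2769 and 3057 in the double deletion, 3382 and 3749 in plus RPL12A, 3213 and 3147 in plus RPL12B, and 3887 and 3811 in the wild type. It fell by 0.40 (SE 0.08, limma adjusted p = 0.0122). SUI1 (YNL244C), the gene of eIF1, gave 3596 and 3846 in the double deletion, 3971 and 3906 in plus RPL12A, 3839 and 3666 in plus RPL12B, and 4456 and 4866 in the wild type. For SUI1 the arrays of plus RPL12B lay within the range of the double deletion arrays, and the fall in the double deletion was 0.32 (limma adjusted p = 0.0159). TIF11, the gene of eIF1A, fell by 0.24 (limma adjusted p = 0.0182). TIF5, which encodes eIF5, the GTPase activator of eIF2, had 2221 and 2262 in the double deletion and 2638 and 2484 in the wild type, a difference of -0.19 (95% interval -0.37 to -0.01, limma adjusted p = 0.0944).

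Of the 3 subunits of eIF2, the alpha subunit gene SUI2 fell by 0.32 (limma adjusted p = 0.0219), and the beta and gamma subunit genes SUI3 and GCD11 were both at -0.21 (limma adjusted p = 0.073 and 0.0587). SUI2 gave 2649 and 2789 in the double deletion and 3205 and 3581 in the wild type. Both double deletion arrays lay below both wild type arrays for all 3 subunits. Of all tested genes 28.2% did so, and 47.3% had both arrays above, so groups without overlap were common.

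The genes of eIF2B, the exchange factor of eIF2, did not move as a block. GCD7 (YLR291C), which encodes its beta subunit, gave 847 and 889 in the double deletion, 947 and 829 in plus RPL12A, 970 and 782 in plus RPL12B, and 1268 and 1318 in the wild type. The 3 groups of 6EA1 strains overlapped each other and lay wholly below the wild type. GCD7 fell by 0.58 in the double deletion (SE 0.13, limma adjusted p = 0.0196), a ratio of 0.671, and by 0.65 with quantile normalization (limma adjusted p = 0.0211), while with hybridisation control centring it was at -0.17 (limma adjusted p = 0.418). The catalytic epsilon subunit gene GCD6 was at 1665 and 1794 in the double deletion and 1510 and 1456 in the wild type. This difference of 0.22 (95% interval -0.01 to 0.45, limma adjusted p = 0.121) did not pass the test, although both double deletion arrays were above both wild type arrays. GCD1, GCD2 and GCN3, for the gamma, delta and alpha subunits, had overlapping groups and differences of -0.09, -0.12 and 0.09.

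In eIF3, 2 of 6 genes fell, where 12.2% of all tested genes did, and the median was -0.25. TIF34 (YMR146C), for the i subunit, gave 2755 and 3040 in the double deletion, 3264 and 3451 in plus RPL12A, 3215 and 3350 in plus RPL12B, and 3813 and 3979 in the wild type. It fell by 0.43 (SE 0.08, limma adjusted p = 0.00911), and its double deletion arrays were lowest with the plasmid strains between. TIF35, for the g subunit, fell by 0.30 (limma adjusted p = 0.0348). The core subunit genes RPG1, PRT1 and NIP1 were at -0.20, -0.33 and -0.20, with limma adjusted p = 0.109, 0.0569 and 0.161. HCR1, for the loosely bound j subunit, was at 0.02 (95% interval -0.23 to 0.26), with overlapping groups.

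The elongation factor genes had similar differences on the deposited scale apart from 2 paralogs. Leaving aside the paralogs HEF3 and ANB1, 6 of 7 genes fell, where 12.2% of all tested genes did. All 7 lay between -0.37 and -0.21, and the median was -0.28. With quantile normalization 0 of these 7 fell and their differences ran from -0.09 to 0.05, and with hybridisation control centring they ran from 0.03 to 0.20. TEF2 (YBR118W), the eEF1A probe set, gave 4609 and 5218 in the double deletion, 5773 and 6488 in plus RPL12A, 5086 and 5404 in plus RPL12B, and 6247 and 6356 in the wild type. It fell by 0.36 (SE 0.08, limma adjusted p = 0.0183), and 1 plus RPL12A array was above both wild type arrays. EFT2 (YDR385W), the probe set for the translocase eEF2, gave 5440 and 6162 in the double deletion, 6517 and 6798 in plus RPL12A, 5825 and 6399 in plus RPL12B, and 6789 and 7143 in the wild type. It fell by 0.27 (limma adjusted p = 0.0371), and the second array of the double deletion was within the range of plus RPL12B.

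The eEF1B exchange factor genes TEF4, EFB1 and CAM1 gave 2 falls in 3, where 12.2% of all tested genes fell. TEF4 (YKL081W), 1 of 2 genes for the gamma subunit, gave 4148 and 4678 in the double deletion, 5065 and 4769 in plus RPL12A, 4554 and 4504 in plus RPL12B, and 5650 and 5743 in the wild type. It fell by 0.37 (limma adjusted p = 0.0114). EFB1, the catalytic alpha subunit, gave 5307 and 5852 in the double deletion and 6624 and 6933 in the wild type, and it fell by 0.28 (limma adjusted p = 0.0175). CAM1, the other gamma subunit gene, was at -0.21 (95% interval -0.41 to -0.01, limma adjusted p = 0.103).

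The paralogous pairs of eEF3 and eIF5A genes were taken gene by gene. YEF3 (YLR249W), the main eEF3 gene, gave 6278 and 7161 in the double deletion, 7667 and 7697 in plus RPL12A, 6792 and 7615 in plus RPL12B, and 8037 and 8199 in the wild type. It fell by 0.28 (SE 0.08, limma adjusted p = 0.0343), but its difference was -0.01 after quantile normalization, and after centring on the hybridisation controls it was 0.13. HEF3 (YNL014W), its paralog, which in ordinary growth is expressed little, gave 184 and 162 in the double deletion, 150 and 133 in plus RPL12A, 153 and 145 in plus RPL12B, and 109 and 98.1 in the wild type. By group means the order in HEF3 was the reverse of that in YEF3, and HEF3 had all 6 arrays of the 6EA1 strains above both wild type arrays. HEF3 rose by 0.75 (SE 0.17, 95% interval 0.34 to 1.15, limma adjusted p = 0.0183), a ratio of 1.68. Its difference was positive under all 4 scales, at 0.54 with median centring, 1.15 with hybridisation control centring and 0.25 with quantile normalization, where it was no longer called (limma adjusted p = 0.258).

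The eIF5A pair promotes peptide bond formation at difficult sequences and helps termination. HYP2 (YEL034W), the gene used in aerobic growth, gave 5242 and 5973 in the double deletion, 6412 and 6435 in plus RPL12A, 5561 and 6036 in plus RPL12B, and 6597 and 6626 in the wild type. It fell by 0.24 (limma adjusted p = 0.0424), but its difference was 0.05 after quantile normalization, and after centring on the hybridisation controls it was 0.16. ANB1 (YJR047C), the gene of the hypoxic form, which oxygen and heme repress, gave 97.2 and 80.2 in the double deletion, 106 and 89.4 in plus RPL12A, 94.1 and 102 in plus RPL12B, and 132 and 169 in the wild type. All 6 arrays of the 6EA1 strains were below both wild type arrays. ANB1 fell by 0.76 (SE 0.21, 95% interval -1.26 to -0.26, limma adjusted p = 0.0335), a ratio of 0.59, and by 1.15 with quantile normalization (limma adjusted p = 0.0121), while with hybridisation control centring it was at -0.36 (limma adjusted p = 0.275). HYP2 and ANB1 encode closely similar proteins, and cross-hybridisation between their probe sets was not tested.

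**Figure D2:**
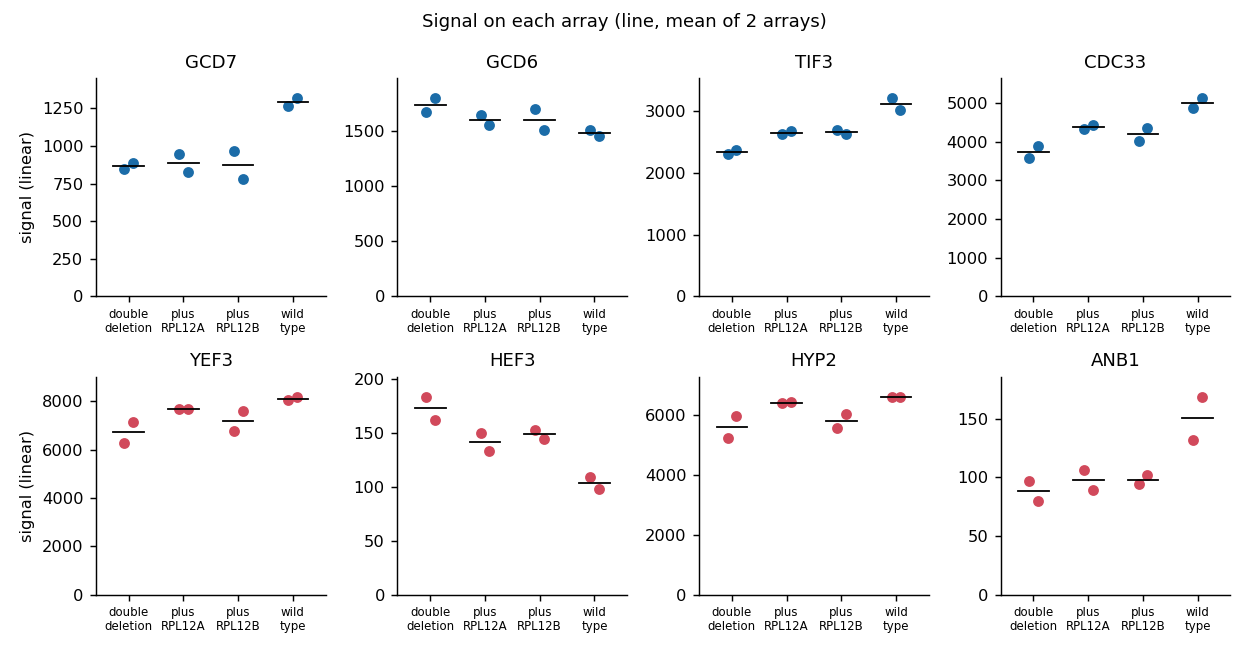
Linear signals on each array are shown for 8 factor genes, with points for arrays and a line for the mean of 2 arrays, each panel with its own axis from 0 and the groups in the order double deletion, plus RPL12A, plus RPL12B and wild type. GCD7 and ANB1 are low in all 3 groups of 6EA1 strains, HEF3 is highest in the double deletion at 184 and 162, and TIF3, CDC33, YEF3 and HYP2 have their lowest array in the double deletion.

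In termination and recycling only SUP45 (YBR143C), the gene of eRF1, passed the test. It gave 3151 and 3390 in the double deletion, 4038 and 3927 in plus RPL12A, 3631 and 3747 in plus RPL12B, and 4134 and 4015 in the wild type. The fall was 0.32 (SE 0.06, limma adjusted p = 0.0132), and it was 0.09 above the wild type with hybridisation control centring. SUP35, the gene of eRF3, had overlapping groups, with 2638 and 2761 in the double deletion and 2967 and 2677 in the wild type. Its difference was -0.06 (95% interval -0.25 to 0.12). The recycling ATPase gene RLI1 and the eEF3-related gene NEW1 were at -0.23 (limma adjusted p = 0.132) and -0.19 (limma adjusted p = 0.186).

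The differences followed signal level among tested genes with a mean signal over 100. Genes with a mean signal over 3000 had a median log2 difference of -0.28 between double deletion and wild type, with 25th and 75th percentiles of -0.35 and -0.18 over 460 genes, and the 17 factor genes in that band had a median of -0.32. Between 1000 and 3000 the medians were -0.19 for 16 factor genes and -0.06 for all 1329 genes, and between 300 and 1000 they were -0.15 for 3 factor genes and 0.26 for 2485 genes. From 100 to 300, where HEF3 and ANB1 lie, the median over 762 genes was 0.46. Under 100, where no factor gene lies, the median over 403 genes was lower, at 0.19. After quantile normalization the median over 3000 was -0.05 for the factor genes and -0.01 for all genes in the band. Of the 38 factor genes, 26 lay between the 25th and 75th percentiles of their own band, 11 below and 1 above. The 11 below were TIF3, TIF4632, CDC33, FUN12, GCD2, GCD7, TIF34, TIF35, TEF2, TEF4 and ANB1, and the 1 above was GCD6. HEF3, at 0.75, was inside its band, whose 75th percentile was 0.80. The bands were drawn with these data in view and serve only as a description.

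Other measures also varied over the arrays, not all of them by group. The brightest probe set on an array had a signal of 6841 and 7469 in the double deletion, 8073 and 8236 in plus RPL12A, 7269 and 7928 in plus RPL12B, and 8564 and 8915 in the wild type. The ratio of 5′ to 3′ signal of the TDH1 control, a measure of RNA integrity, was 0.653 and 0.479 in the double deletion, 0.76 and 0.625 in plus RPL12A, 0.779 and 0.553 in plus RPL12B, and 0.784 and 0.754 in the wild type. A control for 25S ribosomal RNA was 4319 and 3947 in the double deletion, 5720 and 277 in plus RPL12A, 4933 and 312 in plus RPL12B, and 2476 and 148 in the wild type, so both double deletion arrays were high and the other groups had 1 high and 1 low array each. Outside the double deletion the high array was the first replicate and the low array the second. The TDH1 ratio was lower on the second array of every group. With the arrays split by the 25S control as a block, 21 factor genes fell and 1 rose. The share of all tested genes called is not given for this fit or for the fits without 1 array. Their counts therefore describe the factor genes alone. The part of signal compression or RNA integrity in the factor genes' differences was not tested. Without 1 array the counts changed as well: 4 factor genes fell without the first wild type array, 1 without the second wild type array and 0 without the first double deletion array, against 15 to 20 without any other array. The rise of HEF3 was not called without any of those 3 arrays, with log2 differences of 0.65 to 0.84 over all 8 such fits. No call among the 20 held in all 8. GCD7 had its highest limma adjusted p, 0.109, without the first double deletion array, with differences of -0.61 to -0.54, and ANB1 had 0.187 without the second wild type array, with differences of -0.94 to -0.58.

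**Figure D3:**
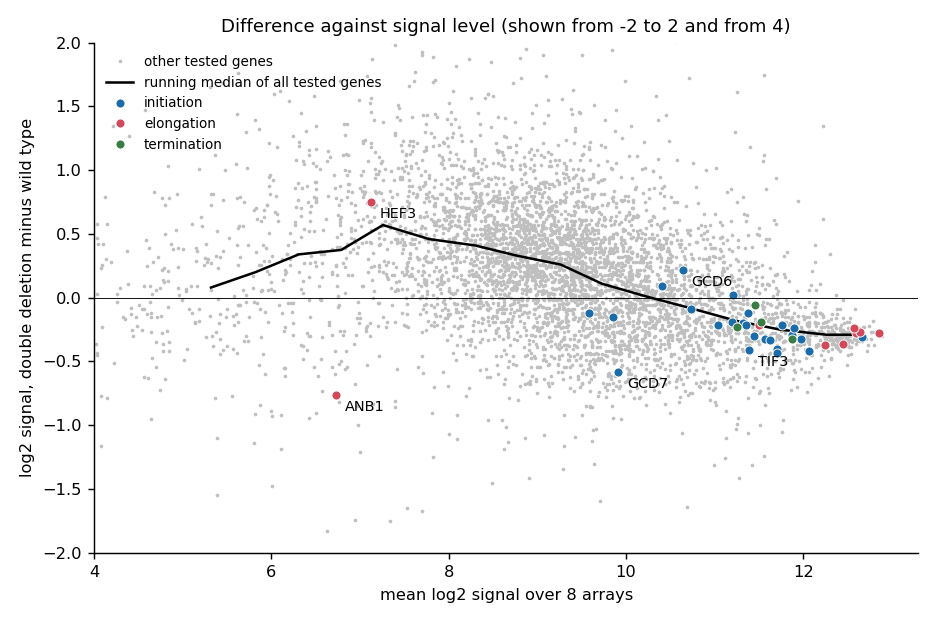
Each tested gene's log2 difference, double deletion minus wild type, is plotted against its mean log2 signal over 8 arrays, with factor genes coloured by class and a black line for the running median of all tested genes. The bright factor genes lie along the line, whose level over a signal of 3000 is near -0.28, while GCD7 and ANB1 lie well below it.

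Initiation and elongation factors were then compared, since the elongation factors eEF1A and eEF2 act at the stalk and Rpl12 region. The elongation class also holds eEF1B, eEF3 and eIF5A genes, and the initiation class holds the gene of eIF5B. The comparison is thus between classes and does not split the factors by action at the stalk. The median difference between double deletion and wild type was -0.21 for 25 initiation factor genes and -0.28 for 9 elongation factor genes. The initiation median minus the elongation median was 0.06, less than the pooled SD of 0.08 that this quantity had between the arrays of a group. On single arrays, measured from the wild type mean, the initiation minus elongation value was 0.09 and 0.02 in the double deletion, -0.05 and -0.08 in plus RPL12A, 0.14 and -0.06 in plus RPL12B, and 0.02 and -0.02 in the wild type. With quantile normalization the double deletion value took the other sign, at -0.05. The same quantity was -0.04 for plus RPL12A against the double deletion, -0.02 for plus RPL12B against the double deletion, -0.05 for plus RPL12A against the wild type and 0.02 for plus RPL12B against the wild type, each again under the pooled SD. A difference between the classes was thus not detectable beyond the spread between arrays. That SD is pooled over the 4 groups, and the spread was widest in plus RPL12B, at 0.14 and -0.06. The differences also followed signal level, whose part in this comparison of classes was not tested. Within the initiation class the range, -0.58 to 0.22, was wider than the distance between the class medians, and the genes of GTP-binding factors of all classes, FUN12 at -0.40, TEF2 at -0.36, EFT2 at -0.27, GCD11 at -0.21 and SUP35 at -0.06, were spread within it.

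**Figure D4:**
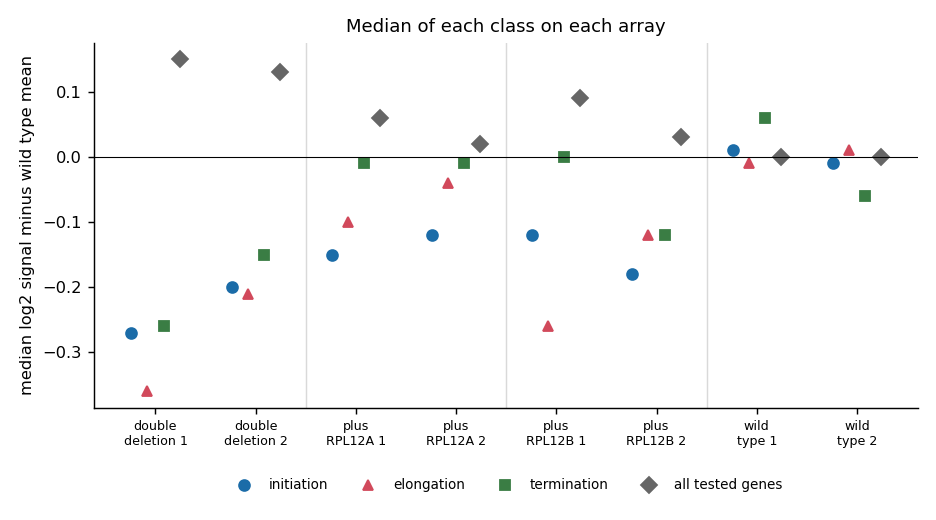
The median log2 signal of initiation, elongation and termination factor genes and of all tested genes is shown for each array relative to the mean of the 2 wild type arrays. On both double deletion arrays the factor medians lie between -0.36 and -0.15 while all tested genes are at 0.15 and 0.13. The initiation medians of the plasmid strain arrays, -0.18 to -0.12, lie between those of the double deletion and the wild type, while the elongation median of the first plus RPL12B array, -0.26, is below that of the second double deletion array, -0.21.

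No factor gene passed the test between either plasmid strain and the double deletion in the fit without a block. With the replicate number as a block 1 rose in plus RPL12A. Between plus RPL12A and the double deletion 0 of 38 rose and 0 fell, where 0.221% of all tested genes rose and 0% fell, and the lowest limma adjusted p was 0.212. At an unadjusted p under 0.05, 13 factor genes were higher, against 7.1% of all tested genes, and 0 were lower, against 8.57%. Both plus RPL12A arrays lay above both double deletion arrays for 27 of 38 genes, where 17% of all tested genes did, and below for 4, where 34.5% did. The median difference was 0.16 for the factor genes and -0.09 for all tested genes. TEF2 was at 0.32, FUN12 at 0.29, SUP45 at 0.28 and CDC33 at 0.23, with limma adjusted p = 0.238, 0.238, 0.212 and 0.245. Among all genes with a signal over 3000 the median was 0.18, and among factor genes in that band 0.20. After quantile normalization those medians were 0.01 and 0.02, and after centring on the hybridisation controls the median of all 38 factor genes was -0.01, with 20 of them below 0.

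Between plus RPL12B and the double deletion 0 of 38 rose and 0 fell, against 0.11% and 0% of all tested genes, and the lowest limma adjusted p was 0.642. At an unadjusted p under 0.05, 4 factor genes were higher (SUP45, TIF3, EFB1 and TIF34), against 3.33% of all tested genes, and 0 were lower, against 3.88%. Both arrays lay above both double deletion arrays for 15 genes, where 12.3% of all tested genes did, and below for 1, where 25.7% did. The median was 0.09 for the factor genes and -0.06 for all tested genes. After quantile normalization the factor median was 0.02, and after centring on the hybridisation controls it was -0.08, with 33 of 38 factor genes below 0. Both comparisons share the double deletion arrays, so they are not independent of each other.

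The plasmid strains were also compared with each other. Between plus RPL12B and plus RPL12A 0 of 38 genes rose and 0 fell, against 0% and 0.0184% of all tested genes. At an unadjusted p under 0.05 only TEF2 differed, at -0.22 (95% interval -0.42 to -0.03), with a limma adjusted p of 1, where 1.21% of all tested genes were lower and 0.496% higher at that level. Both plus RPL12B arrays were below both plus RPL12A arrays for 16 factor genes, where 8.4% of all tested genes were, and above for 0, where 11.6% were.

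Against the wild type, plus RPL12A had 0 of 38 factor genes called in either direction, where 2.22% of all tested genes rose and 1.75% fell. At an unadjusted p under 0.05, 1 gene was higher, against 14.3% of all tested genes, and 10 were lower, against 10.8%. Both plus RPL12A arrays lay below both wild type arrays for 20 factor genes, where 25.6% of all tested genes did, and above for 2, where 33.3% did. The factor genes' median was -0.08, against 0.04 for all tested genes. GCD7, at -0.54, had the lowest limma adjusted p, 0.071. ANB1 was at -0.62 (limma adjusted p = 0.129) and HEF3 at 0.45 (limma adjusted p = 0.159). Plus RPL12B had 3 factor genes that fell, SUI1, GCD7 and TEF4, and 0 that rose, where 3.9% of all tested genes fell and 5.59% rose. These falls were 0.31 (limma adjusted p = 0.0406), 0.57 (limma adjusted p = 0.0446) and 0.33 (limma adjusted p = 0.037). The calls depended on the model: with the replicate number as a block 12 factor genes fell and 1 rose in plus RPL12B, and 3 fell in plus RPL12A. Shares of all tested genes are not given for that fit. Without 1 array at a time these 3 calls became 0 to 1, whichever of the 8 arrays was left out. At an unadjusted p under 0.05, 15 factor genes were lower, against 13% of all tested genes, and 1 was higher, against 18%. Both plus RPL12B arrays lay below both wild type arrays for 26 factor genes, where 25% of all tested genes did, and above for 1, where 35.3% did. The factor median was -0.16, against 0.07 for all tested genes. With quantile normalization 1 factor gene fell in plus RPL12B, and with hybridisation control centring 0 fell and 1 rose.

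Across the 4 groups, 18 factor genes had all 6 arrays of the 6EA1 strains below both wild type arrays, a pattern held by 17.7% of all tested genes, and 1, HEF3, had all 6 above, a pattern of 26.9%. The 18 included 13 initiation and 5 elongation genes and no termination gene. For 9 factor genes (TIF2, TIF3, CDC33, TIF11, FUN12, SUI2, TIF34, TIF35 and EFB1) the double deletion was lowest, all 4 plasmid strain arrays lay between, and the wild type was highest, where 4.61% of all tested genes had this order. The reverse order held for HEF3 and for 10.8% of all tested genes. These shares cover genes of every signal level. Over all 460 genes with a mean signal over 3000, the median against the wild type was -0.28 in the double deletion. It was -0.19 in plus RPL12B and -0.09 in plus RPL12A. The part of signal level in these patterns was not tested. GCD7 and ANB1 stood apart from the 9 factor genes named above. GCD7 differed from the double deletion by 0.03 in plus RPL12A (95% interval -0.29 to 0.35) and 0.01 in plus RPL12B (95% interval -0.31 to 0.32), and ANB1 by 0.14 and 0.15. These GCD7 intervals do not reach the estimated 0.58 by which the double deletion lay under the wild type. That difference of -0.58 had its own 95% interval of -0.89 to -0.26 and rests on the same double deletion arrays. Against the wild type GCD7 was at -0.54 in plus RPL12A (95% interval -0.86 to -0.23) and -0.57 in plus RPL12B (95% interval -0.89 to -0.25). On the deposited scale a full return to the wild type level was thus not seen. On that scale GCD7 was called in plus RPL12B (limma adjusted p = 0.0446) but not in plus RPL12A (limma adjusted p = 0.071). With hybridisation control centring the differences were -0.33 and -0.31 (limma adjusted p = 0.191 and 0.226). The return of GCD7 is therefore not settled over the scales.

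**Figure D5:**
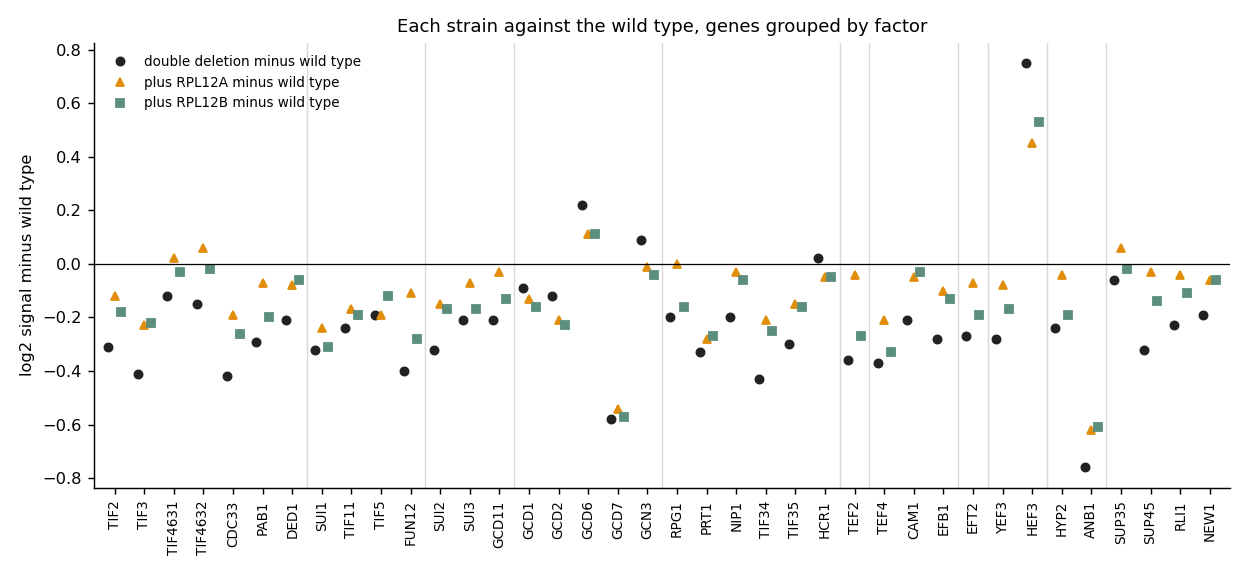
The log2 difference from the wild type is plotted for each factor gene in the double deletion (circles), plus RPL12A (triangles) and plus RPL12B (squares), with vertical lines between factors. For most genes the plasmid strains lie nearer 0 than the double deletion, while for GCD7 all 3 symbols lie between -0.58 and -0.54.

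Genes that regulate or modify the factors were set beside them, from lists of related genes. Of 19 genes that regulate initiation, 2 rose and 3 fell in the double deletion, with a median of -0.11, where 20.4% of all tested genes rose and 12.2% fell. CAF20, which encodes an eIF4E-binding repressor, fell by 0.44 (limma adjusted p = 0.027), STM1, a ribosome-binding protein, by 0.29 (limma adjusted p = 0.00895), and GIS2 by 0.31. EAP1, another eIF4E-binding protein, rose by 0.40 (limma adjusted p = 0.0469), and GCN20, a partner of the eIF2 kinase pathway, was the other rise. With quantile normalization 0 of the 19 fell and 1 rose, where 7.85% of all tested genes fell and 7.23% rose. After centring on the hybridisation controls 0 fell and 8 rose, where 1.2% of all tested genes fell and 51.9% rose.

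Of 18 genes of enzymes that modify translation factors, 7 fell and 0 rose on the deposited scale (12.2% and 20.4% of all tested genes), 7 fell with quantile normalization (7.85%), and 0 fell and 3 rose with hybridisation control centring (1.2% and 51.9%), where the median was 0.13. The median was -0.28 on the deposited scale and -0.47 with quantile normalization. The largest falls were NNT1 by 0.78 (limma adjusted p = 0.0127), a methyltransferase that acts on eEF1A, LIA1 by 0.72 (limma adjusted p = 0.0078), the hydroxylase that completes hypusine on eIF5A, DPH2 by 0.65 (limma adjusted p = 0.00961), an enzyme of diphthamide synthesis on eEF2, and TRM112 by 0.65 (limma adjusted p = 0.012), the partner of the methyltransferase of eRF1. With hybridisation control centring these 4 kept a negative sign, at -0.38, -0.32, -0.25 and -0.25. Against the wild type NNT1 also fell in plus RPL12A, by 0.79 (limma adjusted p = 0.0451), and NNT1, LIA1 and TRM112 fell in plus RPL12B by 0.72, 0.56 and 0.52.

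The translation factors of mitochondria, which work on a separate ribosome without Rpl12, fell in 4 of 8 genes (12.2% of all tested genes). The median was -0.42. With quantile normalization 6 of the 8 fell (7.85% of all tested genes). With hybridisation control centring 0 fell (1.2% of all tested genes), and the median was -0.01. TUF1, the mitochondrial counterpart of eEF1A, fell by 0.65 (limma adjusted p = 0.0103). Where 12.2% of all tested genes fell on the deposited scale, other cytosolic translation genes gave these counts. Of 120 cytosolic ribosomal protein genes 95 fell, with a median of -0.30, and of 18 aminoacyl-tRNA synthetase genes 14 fell, with a median of -0.32. With quantile normalization these became 4 falls (median -0.02) and 1 fall (median -0.11), where 7.85% of all tested genes fell. With hybridisation control centring the medians were 0.10 and 0.09. The 5 stalk protein genes all fell on the deposited scale, with a median of -0.34. With quantile normalization 0 of the 5 fell (7.85% of all tested genes), and their median was -0.07. After centring on the hybridisation controls their median was 0.06.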

How the data were processed

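The authors deposited 1 linear intensity per probe set and array, which per the submitters' processing notes comes from MAS5 (version not given in the sources used here). Its 2% trimmed mean was about 500.2 on each array. RNA came from cultures titled biological replicates, and p-values measure only the spread between them. Probe sets were named from the platform annotation. The 47 genes with several probe sets took the brightest; no factor gene has several.

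The log2 of the deposited intensity was fitted for all 8 arrays with limma 3.58.1 in R 4.3.3 (lmFit, eBayes with intensity trend, 4 residual degrees of freedom). Tested genes exceeded the 95th percentile of an array's Schizosaccharomyces pombe signals on 2 or more arrays, and 10 genes did not. With 2 arrays against 2 an exact test cannot go below p = 0.333. The factor genes and the other lists were chosen with earlier results of these data known. Every factor gene could be named, and up to 4 called genes of each other list, those with the largest differences; GCN20 was named beyond this after its value was seen. Alternatives were other scalings, filters, variance models, blocks, thresholds and leaving out arrays. The code was tested on simulated data. Sequences and genome positions are not used here.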

Additional observations from a re-analysis of the deposited data

How the results depend on the processing

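Between double deletion and wild type, where 19 fell and 1 rose on the deposited scale, 31 fell with median centring, 3 fell and 0 rose with quantile normalization, and 0 fell and 6 rose with hybridisation control centring. Without the intensity trend 8 fell, and at a threshold of 0.01 3 fell and 0 rose. Leaving out 1 array at a time gave 0 to 20 falls and 0 to 1 rises, and none of the 20 called genes kept its call in all 8 of these fits. For plus RPL12B against the wild type the 3 falls became 12 with median centring, 1 with quantile normalization, 7 with the 25S split as a block, and 0 with hybridisation control centring, without the trend, with the 4 compared arrays alone or at a threshold of 0.01. Leaving out 1 array gave 0 to 1 falls there. The count of rises, 0, became 1 with hybridisation control centring and with the 25S block. Apart from the shares given earlier, the shares of all tested genes called under these settings are not given. These counts therefore describe the factor genes alone. For plus RPL12A against the wild type the 0 falls became 1 with median centring, 1 with the 25S block, and 0 to 1 without 1 array.

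Replicate numbers are shared by the groups. Deviations of arrays with the same number correlated at 0.33, 0.41, 0.29, 0.34 and 0.79 over 5 pairs of groups and at 0.05 for double deletion and plus RPL12B. The sample titles name no shared batch, and the numbers were not taken as pairs. Whether arrays with the same number share a batch was not tested. With the replicate number as a block 1 factor gene rose in plus RPL12A against the double deletion, 3 fell in plus RPL12A against the wild type, and 12 fell and 1 rose in plus RPL12B against the wild type. Double deletion against wild type gave 21 falls and 1 rise. Shares of all tested genes under this block are not given, so these counts also describe the factor genes alone.

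The initiation minus elongation median changed sign with quantile normalization in 3 comparisons. It became -0.045 for double deletion against wild type, 0.037 for plus RPL12A against double deletion and -0.09 for plus RPL12B against wild type. Without 1 array it ran from -0.105 to 0.0596 for plus RPL12B against double deletion and from -0.0611 to 0.138 for plus RPL12B against wild type.

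After centring on the hybridisation controls 5 of 38 factor genes were below 0 between double deletion and wild type, against 34 on the deposited scale. For genes that were called on at least 1 of these scales and turned positive, the values were 0.098 for TIF2, 0.286 for TIF4631, 0.12 for PAB1, 0.081 for SUI1, 0.162 for TIF11, 0.0011 for FUN12, 0.087 for SUI2, 0.1 for TIF35, 0.043 for TEF2, 0.034 for TEF4, 0.123 for EFB1, 0.139 for EFT2, 0.129 for YEF3, 0.164 for HYP2, 0.343 for SUP35, 0.087 for SUP45, 0.0928 for GIS2 and 0.118 for STM1. Among genes that fell on the deposited scale, the sign turned with quantile normalization for TIF11 at 0.027, EFB1 at 0.009, EFT2 at 0.024, HYP2 at 0.052 and STM1 at 0.022. The cause of these changes was not tested. Groups of 2 arrays limit the precision throughout, and ANB1 and HEF3 have dim signals.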
